A study of Orbilia oligospora with 12 samples.

Results

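The genes examined are those for the proteins of the mitochondrial ribosome in Arthrobotrys oligospora, a soil fungus that traps nematodes in adhesive networks of hyphae. They were chosen by annotation alone: each gene whose Swiss-Prot match holds both "ribosomal protein" and "mitochondrial". Of 11479 annotated genes 54 met this rule, of which 32 match proteins of the large and 22 proteins of the small subunit. RNA of hyphae was sequenced in 12 libraries, 3 in each of 4 groups: the wild type at 0 h, the wild type at 48 h, a strain labelled ΔAorlmA at 0 h and the same strain at 48 h. Rlm1, after which AorlmA is named, is a MADS-box regulator of cell wall genes in yeast. All groups carry the same treatment label, an extract of nematodes that induces traps, and the growth protocol gives potato dextrose agar at 28 °C for 5 days. That protocol names a ΔAosnf1 mutant in place of ΔAorlmA. The labels call the 3 libraries of a group biological replicates and state no pairing. They do not say whether the replicates were grown apart, so the p-values measure only the spread between these libraries.

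The mitochondrial ribosome translates the few messages of the mitochondrial genome, which in fungi code mainly for core subunits of the respiratory chain and of the ATP synthase. Its ribosomal RNAs come from the mitochondrial genome, whereas nearly all of its proteins are coded in the nucleus, made by cytosolic ribosomes and imported. The small subunit decodes the message and the large subunit forms the peptide bonds. Several proteins are shared with bacterial ribosomes, and others occur in mitochondria only. In budding yeast their genes are generally expressed together with growth on carbon sources that need respiration.

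The labels' deletion was looked up first. AOL_s00078g125, the gene closest to Rlm1, had levels of 38.5, 39.99 and 30.3 TPM in the 0 h wild type and of 72.2, 116 and 164 TPM in the labelled strain. TPM is a share of all messages after scaling by gene length. At 48 h the levels were 32.3, 45.1 and 27.9 TPM in the wild type against 109, 96.9 and 87.3 TPM. Its messages were thus not lost in the libraries labelled ΔAorlmA, and each direction given for that strain rests on the label alone. AOL_s00173g192, annotated as SNF1, had 103 to 109 TPM in the 0 h wild type and 36.98 to 53.9 TPM in the labelled strain. Its 48 h levels overlapped, from 28.5 to 54.7 TPM for the wild type and from 23.6 to 41.8 TPM for the labelled strain. Clean reads numbered 48.5 to 61.1 M per library. Among the 38 members of at least 500 bases, the lowest fragment estimate in a library was 135 to 613. The 16 shorter members were left out of that estimate, so their fragment numbers are not known here. All 54 members passed the filter on low values (at least 1 TPM in at least 3 libraries, 9355 genes), so none was lost to it. Hyphal marker genes were not defined here. The 9 genes matched to spores or conidia, of which 7 were tested, summed to between 1960 and 3029 TPM in the 0 h wild type, 599 to 1302 TPM at 48 h, 218 to 909 TPM in the labelled strain at 0 h and 496 to 2232 TPM at 48 h. The rodlet protein gene AOL_s00006g570 held most of that sum in the wild type at 0 h, with a mean of 2449 TPM, and AOL_s00075g89 was listed at 0 in the other 3 groups.

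The members were moderately high genes. Every member lay above the median of the genes tested by its mean over the 12 libraries, and the median member stood at percentile 81.0, against 98.1 for the median of the 85 cytosolic ribosomal protein genes (the KEGG ribosome pathway without a mitochondrial Swiss-Prot match). Single values ran from 20.9 to 675 TPM. The highest mean was that of AOL_s00215g802, matched to yeast RSM19 (family S19 of the head of the small subunit), with 415 TPM. AOL_s00215g849, matched to mrpl31, a large subunit protein specific to mitochondria, followed with 322 TPM. AOL_s00006g347, matched to mrp20 (family L23, beside the exit of the peptide tunnel in bacterial ribosomes), had 248 TPM. The lowest means were 44.7 TPM for AOL_s00006g104 (mrps18, family S11), 48.4 TPM for AOL_s00083g503 (MRPL44) and 50 TPM for AOL_s00054g421 (yml6, family L4, which lines the peptide tunnel in bacterial ribosomes). The highest mean was 9.30 times the lowest. A total of 16 members have coding sequences under 500 bases, and their levels depend more on the effective length used for scaling, which the fragment estimates put at 180 to 210 bases below the coding length.

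In the wild type the set as a whole stood higher at 48 h than at 0 h. The summed level of the 0 h libraries was 5610, 5222 and 7135 TPM, and that of the 48 h libraries 9507, 10270 and 11280 TPM, so that every 48 h library lay above every 0 h library. As a share of all TPM this was 0.599% ± 0.101 at 0 h and 1.035% ± 0.0889 at 48 h (mean ± SD, n = 3 libraries each). In the labelled strain the sum was 4756, 4277 and 3981 TPM at 0 h, below each wild type library, and 8075, 4539 and 4923 TPM at 48 h. The first 48 h library of that strain lay well above the other 2, and it was the highest of its group for 54 of 54 members. The libraries of the 2 times overlapped, since the second at 48 h lay below the first at 0 h. In the wild type at 0 h the third library was the highest for 50 of 54 members. The mean over libraries was highest in the wild type at 48 h for 53 members, the exception being AOL_s00109g189 (mrps28), and lowest in the labelled strain at 0 h for 40. These levels are on the TPM scale. With median-of-ratios scaling, described below, the labelled strain was above the wild type at 0 h for 32 members and below it for 22. TPM measure shares of the messages, and in whole hyphae fewer cells of a kind and less RNA per cell cannot be told apart.

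**Figure D1:**
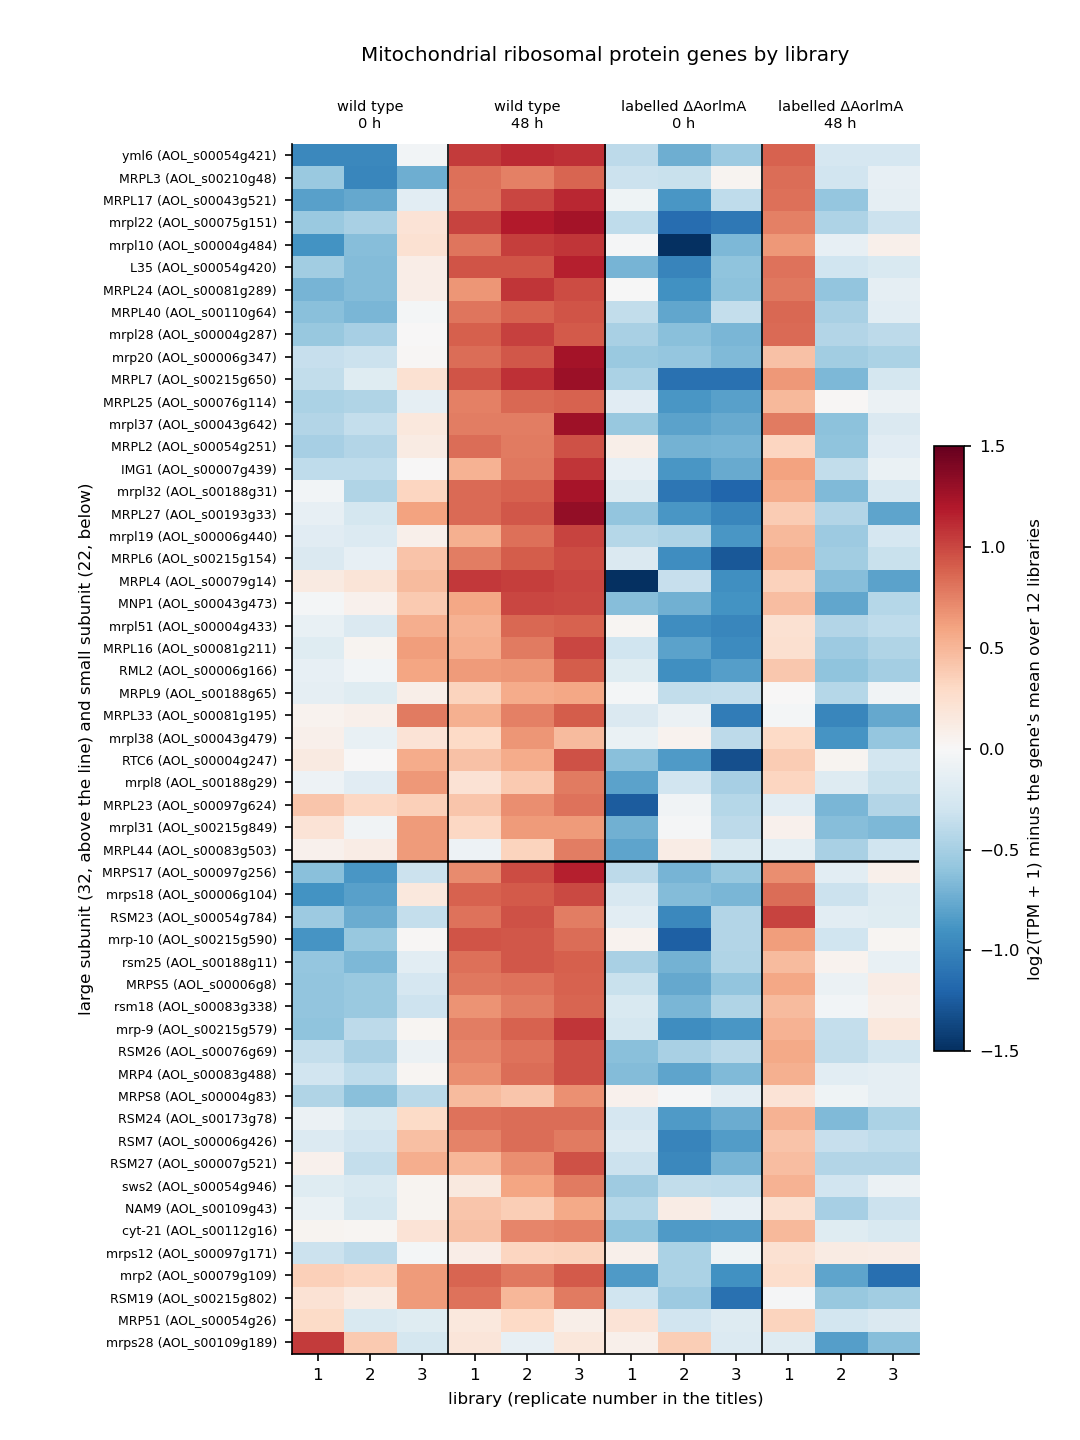
Level of each of the 54 mitochondrial ribosomal protein genes (rows) in each of the 12 libraries (columns), as log2(TPM + 1) minus the gene's mean over the 12 libraries. The 3 wild type libraries at 48 h are high for nearly all rows, as is the first of the 3 libraries labelled ΔAorlmA at 48 h, whereas the other 2 lie close to the 0 h libraries.

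The share of the cytosolic ribosomal protein genes was also highest in the wild type at 48 h. Their share of all TPM was 6.29% ± 1.12 and 13.3% ± 1.06 in the wild type at 0 h and 48 h, and 5.55% ± 1.47 and 6.82% ± 2.50 in the labelled strain (mean ± SD, n = 3 each). The cytosolic sum was 10.5 ± 0.112 times the mitochondrial sum in the wild type at 0 h and 12.9 ± 0.491 times at 48 h, without overlap between the libraries. In the labelled strain it was 12.7 ± 2.22 and 11.6 ± 0.967 times, with overlap. Within the members the large subunit sum was 1.42 ± 0.149 and 1.51 ± 0.0827 times the small subunit sum in the wild type, and 1.29 ± 0.0442 and 1.30 ± 0.116 times in the labelled strain. These ratios overlapped between the strains at either time.

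**Figure D2:**
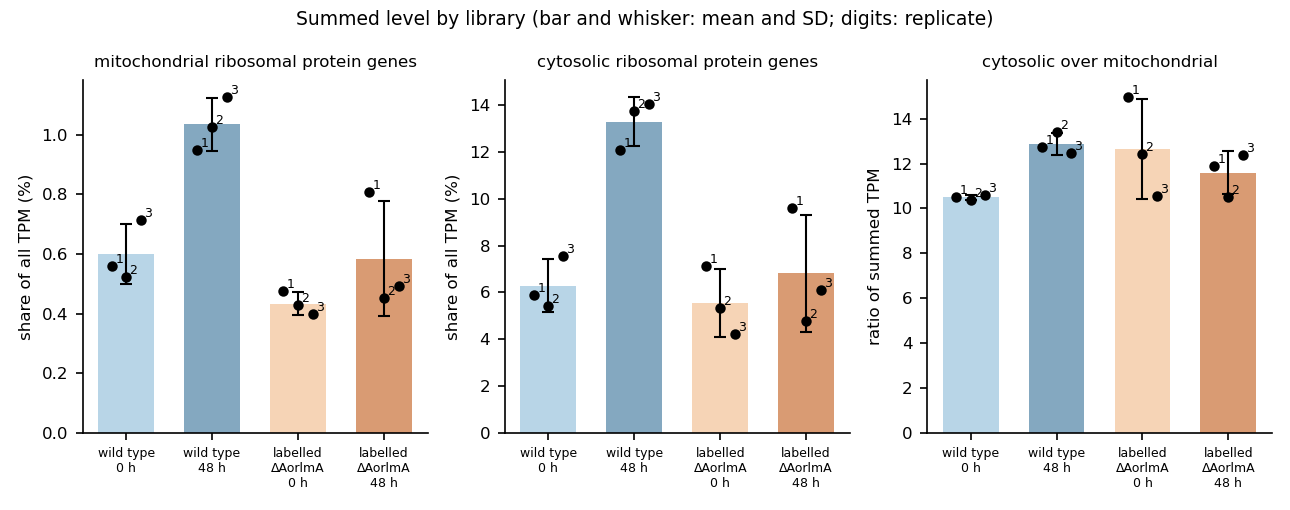
Summed TPM of the mitochondrial (left) and cytosolic (middle) ribosomal protein genes as a percent of all TPM, and the ratio of the 2 sums (right), with a point per library numbered by replicate, bars for the mean and whiskers for the SD over 3 libraries. The mean mitochondrial share reaches 1.035% in the wild type at 48 h. In the libraries labelled ΔAorlmA it is 0.434% at 0 h and 0.585% at 48 h, where the first 48 h library stands apart.

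The first comparison was 48 h against 0 h in the wild type. Of the 54 members 31 rose and none fell (limma, two-sided, adjusted p under 0.05 over the 9355 genes tested), against 17.6% of all genes that rose and 28.7% that fell. The median log2 fold change, taken on log2(TPM + 1), was 0.99 for the members and -0.25 for all genes, and 53 of 54 values were positive. Rises came from both subunits, with 18 of 32 large and 13 of 22 small subunit genes and medians of 1.00 and 0.93. For 43 members all 3 libraries at 48 h lay above all 3 at 0 h, which held for 27.6% of all genes. Leaving out single libraries gave 24 to 38 members that rose, and the other settings tried gave 30 to 45.

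The largest rises of the large subunit were those of yml6, MRPL3 and MRPL17. AOL_s00054g421 (yml6) had 0 h levels of 21.5, 21.4 and 41.7 TPM and 48 h levels of 89.7, 94.5 and 92.9 TPM, a log2 fold change of 1.75 ± 0.34 (SE; limma adjusted p = 0.00159). Its 3 values at 48 h lay close together and above all at 0 h, where the third library was the highest. AOL_s00210g48, matched to MRPL3, a mitochondria-specific protein with a double-stranded RNA binding domain, went from 61.2, 45.2 and 54.1 TPM to 161, 153 and 166 TPM (log2 fold change 1.57 ± 0.29, limma adjusted p = 0.00104). AOL_s00043g521, matched to MRPL17 and carrying the domain of the mitochondria-specific protein L46, had 35.8, 36.9 and 56.7 TPM against 112, 128 and 140 TPM (1.56 ± 0.35, limma adjusted p = 0.00373). The libraries of either gene did not overlap between the times.

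Among small subunit genes the largest rises were those of MRPS17 and mrps18. AOL_s00097g256, matched to MRPS17, which in bacteria is one of the first proteins to bind the small subunit RNA, went from 87.1, 73.1 and 107 TPM to 221, 267 and 304 TPM (log2 fold change 1.56 ± 0.27, limma adjusted p = 0.00062, the lowest of all members). AOL_s00006g104 (mrps18), a protein of the platform in bacterial ribosomes, had 20.9, 21.96 and 44.3 TPM against 74.0, 75.5 and 79.7 TPM (1.45 ± 0.35, limma adjusted p = 0.00572). Both kept every 48 h library above every 0 h library. These 5 genes stayed past the threshold under every alternative tried.

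The 23 members that did not pass included the 2 with the highest means, whereas the next, AOL_s00006g347 (mrp20), rose by 1.22 on the log2 scale (limma adjusted p = 0.00331). AOL_s00215g802 (RSM19) had 443, 417 and 594 TPM against 675, 543 and 658 TPM at 48 h, with overlap between the times (log2 fold change 0.38 ± 0.27). AOL_s00215g849 (mrpl31) had 351, 293 and 475 TPM against 378, 473 and 474 TPM (0.26 ± 0.29). The lowest positive values were 0.07 ± 0.31 for AOL_s00083g503 (MRPL44) and 0.22 ± 0.26 for AOL_s00054g26, matched to MRP51, which in yeast acts in the start of translation on mitochondrial messages. AOL_s00109g189, matched to mrps28 (family S15), was the only member with a negative value: 384, 244 and 154 TPM at 0 h, with the highest SD of any member in that group (115.7 TPM), against 210, 170 and 209 TPM at 48 h (-0.32 ± 0.32, limma adjusted p = 0.427). The members under 500 bases had a median of 0.59, with 5 of 16 that rose, and the longer ones a median of 1.18, with 26 of 38. Spearman's rank correlation of coding length with the log2 fold change was 0.45 across the 54 genes, 0.16 across the 85 cytosolic genes and 0.07 across all genes tested. These genes share their libraries and their scaling, so the values are descriptions.

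Neighbouring genes gave 1 pair of members with consecutive locus tags, AOL_s00054g420 (L35, a mitochondria-specific protein of the large subunit) and AOL_s00054g421 (yml6), both of which rose. AOL_s00054g420 went from 48.0, 43.9 and 74.3 TPM to 134, 134 and 157 TPM (log2 fold change 1.37 ± 0.32, limma adjusted p = 0.00404). Other neighbours were looked up only in the gene lists described below. For 4 members the preceding locus tag belongs to a gene of those lists. AOL_s00215g590 (mrp-10, family S10) rose by 1.38 ± 0.36 on the log2 scale (limma adjusted p = 0.00761) beside the tryptophan tRNA ligase gene AOL_s00215g589 at -0.30 ± 0.40. AOL_s00007g521 (RSM27) had 0.63 ± 0.32 beside the gene AOL_s00007g520 for a respiratory complex I subunit at -0.34 ± 0.21. AOL_s00079g109 (mrp2, family S14) had 0.42 ± 0.32 beside AOL_s00079g108, a subunit gene of the ATP synthase, which fell by 0.72 on the log2 scale (SE 0.22, limma adjusted p = 0.0173). AOL_s00109g189 (mrps28) had -0.32 ± 0.32 beside the serine tRNA ligase gene AOL_s00109g188 at -0.40 ± 0.28. The strand of these genes was not considered.

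**Figure D3:**
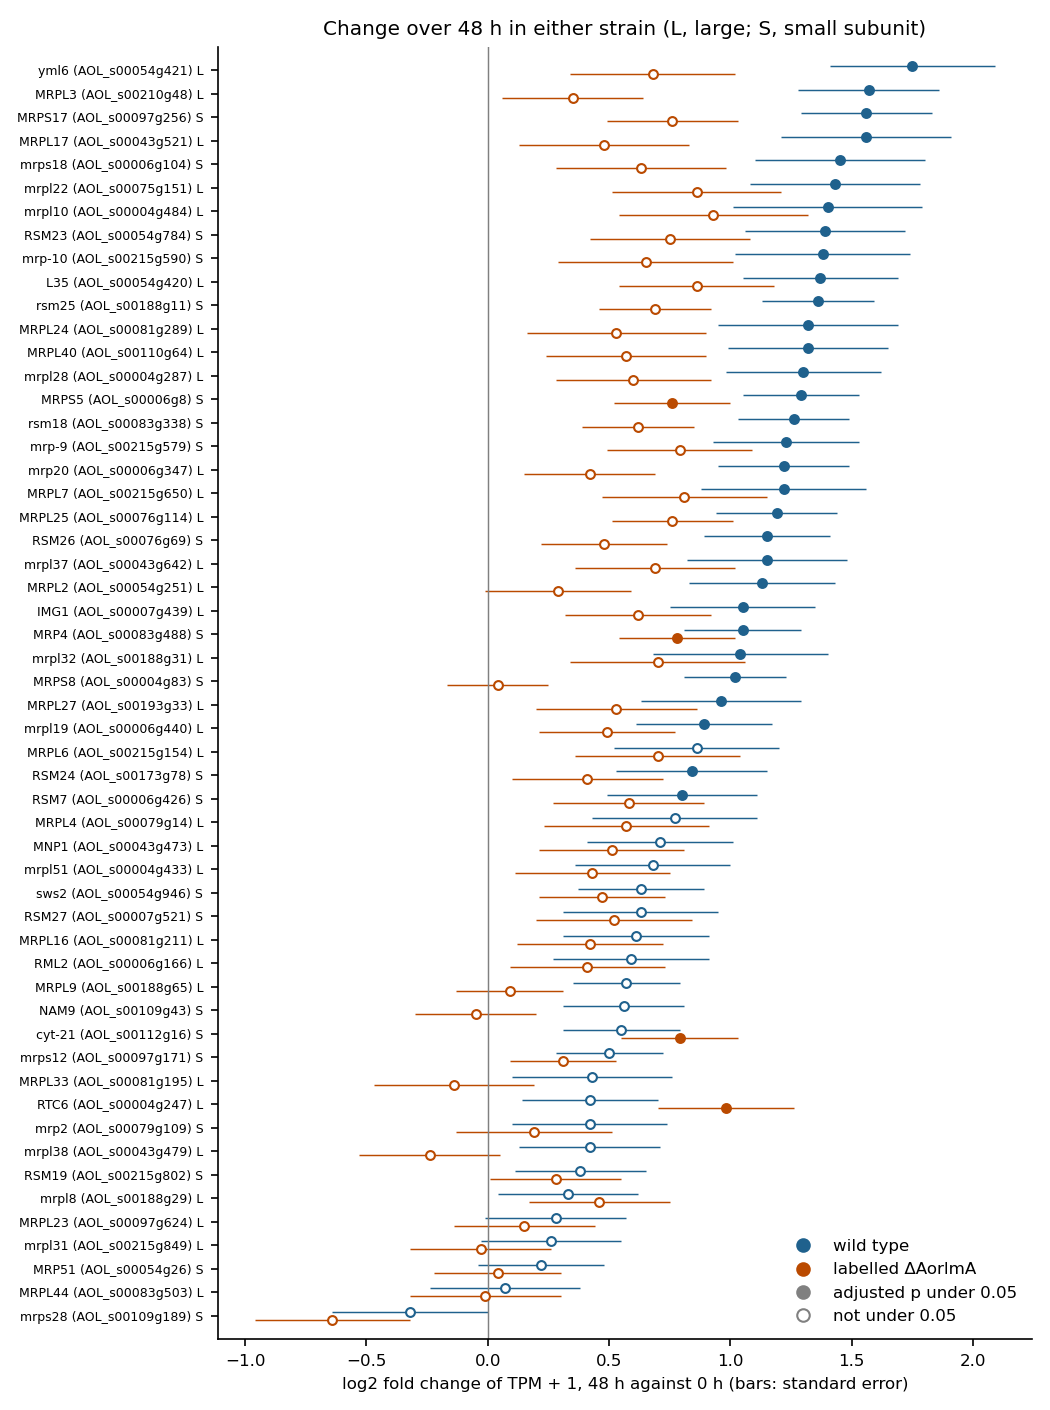
Log2 fold change of TPM + 1 from 0 h to 48 h for each of the 54 members in the wild type (blue) and in the libraries labelled ΔAorlmA (orange), with bars for the standard error and filled points for limma adjusted p under 0.05. In the wild type 31 points are filled and 53 lie above 0, and in the labelled strain 4 are filled.

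The same comparison in the libraries labelled ΔAorlmA gave 4 members that rose and none that fell, against 13.0% and 8.52% of all genes. The median log2 fold change was 0.52 for the members and 0.14 for all genes. For 15 members all 48 h libraries lay above all 0 h libraries, which held for 18.4% of all genes. AOL_s00004g247, matched to RTC6 (family L36, the smallest protein of the bacterial large subunit), went from 48.5, 41.6 and 29.8 TPM to 99.1, 77.6 and 62.4 TPM (log2 fold change 0.98 ± 0.28, limma adjusted p = 0.0273). AOL_s00112g16, matched to cyt-21, the S16 protein of Neurospora mitochondria, had 51.8, 43.6 and 43.8 TPM against 111, 69.5 and 67.6 TPM (0.79 ± 0.24, limma adjusted p = 0.0373). Neither of these 2 genes passed in the wild type, at 0.42 ± 0.28 and 0.55 ± 0.24.

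The other 2 were small subunit genes that rose in both strains. AOL_s00083g488 (MRP4, family S2) went from 78.5, 70.8 and 77.3 TPM to 180, 111 and 112 TPM in the labelled strain (0.78 ± 0.24, limma adjusted p = 0.0370), and 101, 94.9 and 126 TPM against 202, 221 and 242 TPM in the wild type (1.05 ± 0.24, limma adjusted p = 0.00403). AOL_s00006g8 (MRPS5, family S5) had 112, 83.0 and 94.1 TPM against 213, 133 and 153 TPM in the labelled strain (0.76 ± 0.24, limma adjusted p = 0.0370) and a log2 fold change of 1.29 ± 0.24 in the wild type (limma adjusted p = 0.000954). In each of the 4 genes the first 48 h library was the highest. The count rested on single libraries: no member passed without the first 48 h library, where the median of the members was 0.22 and that of all genes 0.08, nor without the second or the third 0 h library, whereas 15 passed without the first 0 h library. Without the second 48 h library 2 passed, and 1 or 2 passed without the first or second wild type library at 0 h or any of those at 48 h, which enter only through the shared estimate of the spread. On the median-of-ratios scale 1 passed.

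The difference between the 2 time courses was tested as an interaction. No member passed in either direction with limma, against 3.23% of all genes with a larger log2 fold change in the labelled strain and 1.2% with a smaller one. The estimate was below 0 for 51 of 54 members, with a median of -0.43 against 0.34 for all genes. At an unadjusted p under 0.05 there were 3 of the 54 members and 2307 of the 9355 genes. The lowest adjusted p was that of AOL_s00004g83, matched to MRPS8 (family S8, which binds the central part of the small subunit RNA in bacteria): 91.1, 80.0 and 93.9 TPM at 0 h against 174, 167 and 201 TPM in the wild type, and 131, 123 and 111 TPM against 144, 119 and 114 TPM in the labelled strain. Its wild type libraries did not overlap between the times and those of the labelled strain did, with an interaction of -0.98 ± 0.29 (limma adjusted p = 0.0689). AOL_s00210g48 (MRPL3) followed with -1.23 ± 0.41 (limma adjusted p = 0.0945), and AOL_s00054g421 (yml6) with -1.07 ± 0.49 (limma adjusted p = 0.198). The first 48 h library labelled ΔAorlmA stood near the wild type at 48 h for both, with 163 and 79.8 TPM, while the other 2 had 73.8 and 83.2 TPM for MRPL3 and 35.9 and 35.7 TPM for yml6. Without that library 5 members passed, all smaller in the labelled strain, and without both first libraries of the strain 8 passed. On the median-of-ratios scale 2 passed, AOL_s00004g83 and AOL_s00210g48.

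At 48 h the strains were compared directly. The group means come from other libraries than at 0 h, while the estimate of the spread is shared by all 12. Of the members 25 were lower in the libraries labelled ΔAorlmA and none was higher, against 14.7% and 9.2% of all genes. All 54 estimates were negative, with a median log2 fold change of -0.87 against -0.11 for all genes. The large subunit had 19 of 32 lower (median -0.95) and the small subunit 6 of 22 (median -0.75). For 42 members all 3 labelled libraries lay below all 3 of the wild type, which held for 29.5% of all genes.

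The largest falls were those of mrp2 and MRPL4. AOL_s00079g109, matched to mrp2 (family S14, in the head of the small subunit), had 196.5, 186 and 203 TPM in the wild type and 129, 61.3 and 48.3 TPM in the labelled strain, without overlap (log2 fold change -1.41 ± 0.32, limma adjusted p = 0.0114). AOL_s00079g14, matched to MRPL4 and carrying the domain of protein L47, a relative of bacterial L29 at the tunnel exit, had 377, 374 and 364 TPM against 230, 116 and 103 TPM (-1.40 ± 0.34, limma adjusted p = 0.0148). The wild type values of these 2 genes differed little among libraries, and the spread lay in the labelled strain, whose first library was the highest.

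The next 3 were large subunit genes. AOL_s00081g195 (MRPL33, family L30) had 105, 123 and 136 TPM in the wild type and 70.7, 36.1 and 42.1 TPM in the labelled strain (-1.32 ± 0.33, limma adjusted p = 0.0175). AOL_s00193g33 (MRPL27, specific to mitochondria) had 164, 173 and 228 TPM against 118, 66.3 and 51.9 TPM (-1.32 ± 0.33, limma adjusted p = 0.0160). AOL_s00215g650 (MRPL7, family L5, which contacts the small subunit in bacterial ribosomes) had 107, 120 and 137 TPM against 87.2, 34.5 and 46.1 TPM (-1.20 ± 0.34, limma adjusted p = 0.0250). None of the 3 overlapped between the strains. Among the most abundant members AOL_s00215g802 (RSM19) fell by 1.07 on the log2 scale (SE 0.27, limma adjusted p = 0.0174) and AOL_s00006g347 (mrp20) by 1.19 (SE 0.27, limma adjusted p = 0.0122). The smallest difference was -0.10 ± 0.22 for AOL_s00097g171 (mrps12, family S12, a protein of the decoding site), with 158, 184 and 184 TPM in the wild type and 171, 159 and 158 TPM in the labelled strain.

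The number of members past the threshold at 48 h moved with single libraries, whereas the direction did not. It was 46 without the first labelled library at 48 h, 1 without the second and 0 without the third. It was 8 without the first wild type library at 48 h, 5 without the second and 1 without the third, and 15, 16 and 38 without the first or second wild type or the first labelled library at 0 h. All 54 estimates stayed negative in each of these fits, with medians from -1.17 to -0.65. Each of the 5 genes above lost its call in at least 1 of them. The median-of-ratios scale gave 12 lower, with mrps12 at 0.04, and a fit without both first labelled libraries gave 49.

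**Figure D4:**
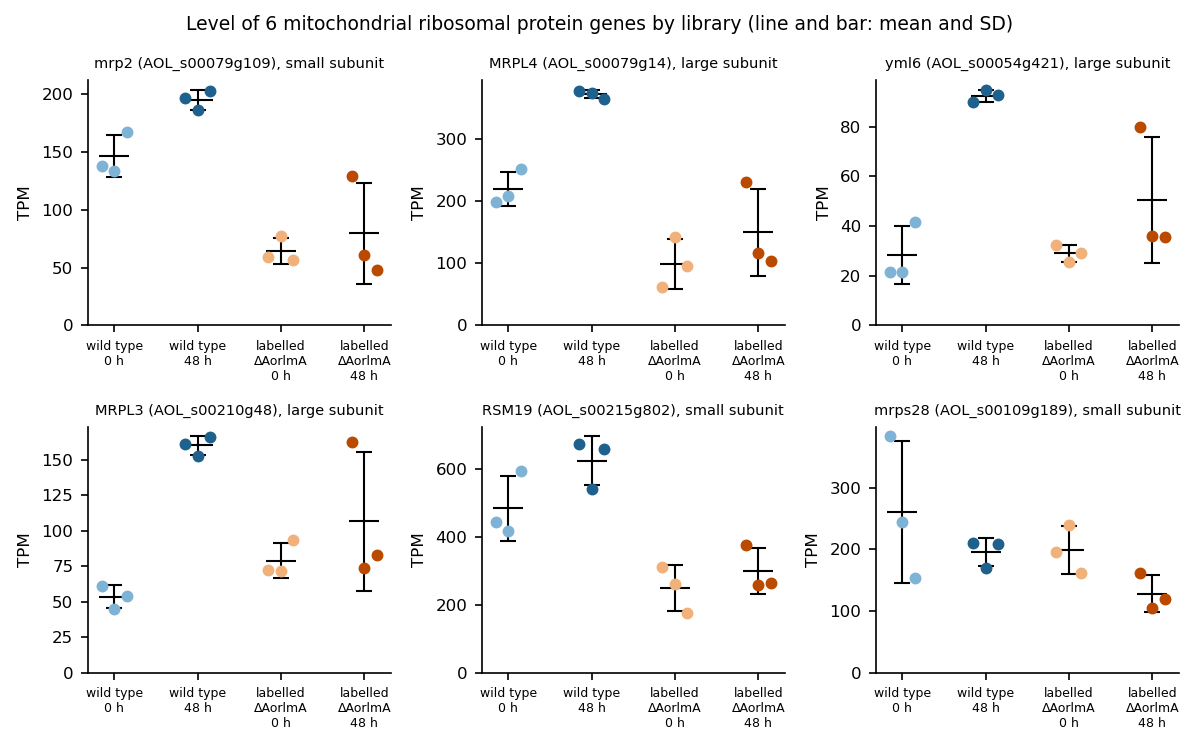
TPM of 6 members in each library of the 4 groups, with the mean and SD over 3 libraries. The first library labelled ΔAorlmA at 48 h is the highest of its group in every panel, mrp2 and MRPL4 are lower in the labelled strain at both times, and mrps28 has its widest spread in the wild type at 0 h.

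At 0 h, under the TPM scale, 9 members were lower in the libraries labelled ΔAorlmA and none was higher, against 33.8% and 8.87% of all genes. The share of members called lower was below that of all genes. The median log2 fold change was -0.38 for the members, -0.20 for the cytosolic genes and -0.56 for all genes. All libraries of the labelled strain lay below those of the wild type for 19 members, against 42.8% of all genes. The direction depended on the scaling. With median-of-ratios scaling, which shifted the median of all genes from -0.56 to -0.06, 3 members were higher and none was lower, with a median of 0.17, and all genes had 1341 higher and 1033 lower in place of 830 and 3160. With quantile normalization 2 were higher and 5 lower. Relative to the median of all genes the members were at 0.18, 0.23 and -0.02 on the 3 scales, TPM first and quantile last. In the other comparisons median-of-ratios scaling moved the median of all genes from -0.25 to -0.04 (wild type over time), from 0.14 to 0.00 (labelled strain over time), from -0.11 to 0.01 (strains at 48 h) and from 0.34 to -0.03 (interaction). Relative to that median the members were at 1.24, 1.27 and 1.03 for the wild type over time, 0.38, 0.36 and 0.28 for the labelled strain over time, -0.76, -0.73 and -0.74 between the strains at 48 h, and -0.77, -0.81 and -0.70 in the interaction.

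**Figure D5:**
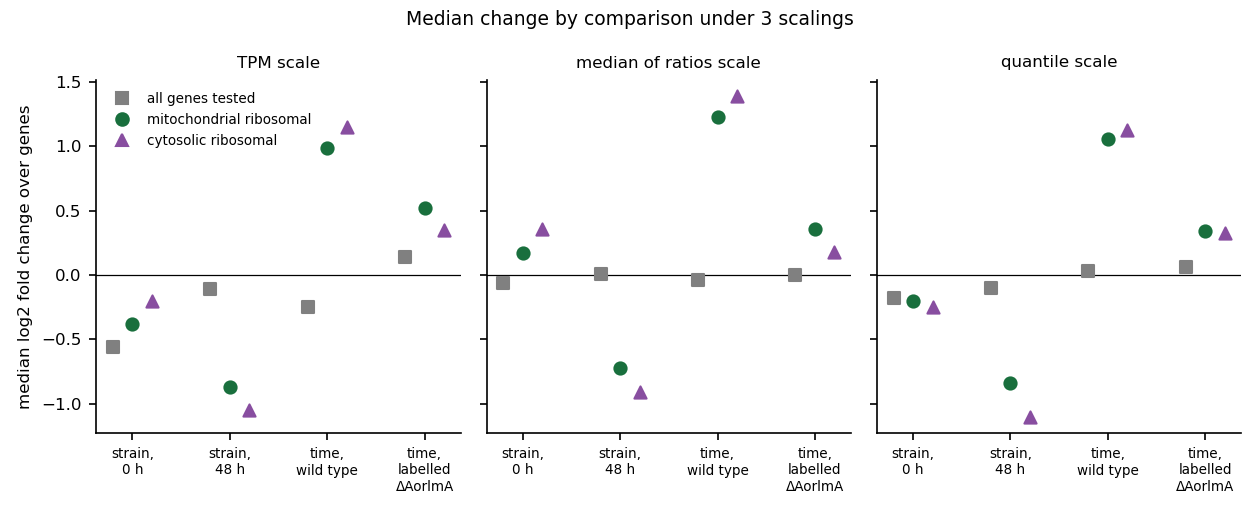
Median log2 fold change of all 9355 genes tested, of the 54 mitochondrial and of the 85 cytosolic ribosomal protein genes in the 4 comparisons under TPM, median-of-ratios and quantile scaling. The medians at 0 h change sign between the first 2 panels for the ribosomal genes, and those at 48 h and over time keep theirs.

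The 5 named genes at 0 h were MRPL4, mrp2, RTC6, RSM19 and MRPL23. AOL_s00079g14 (MRPL4) had 199, 207 and 251 TPM in the wild type and 61.3, 142 and 95.0 TPM in the labelled strain (log2 fold change -1.21 ± 0.34, limma adjusted p = 0.0144). AOL_s00079g109 (mrp2) had 138, 134 and 167 TPM against 58.9, 76.9 and 56.5 TPM (-1.18 ± 0.32, limma adjusted p = 0.0118). AOL_s00004g247 (RTC6) had 83.2, 76.2 and 111 TPM against the 48.5, 41.6 and 29.8 TPM given above (-1.16 ± 0.28, limma adjusted p = 0.00707). The libraries of the 3 genes did not overlap between the strains.

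AOL_s00215g802 (RSM19) had 311, 262 and 176 TPM in the labelled strain, below the 417 TPM of the lowest wild type library (-0.98 ± 0.27, limma adjusted p = 0.0138). AOL_s00097g624 (MRPL23, family L13) had 231, 214 and 223 TPM against 71.9, 167 and 128 TPM (-0.94 ± 0.29, limma adjusted p = 0.0228). None of the 5 kept its call with median-of-ratios scaling, where their values ran from -0.65 to -0.38. The 9 genes that were lower at 0 h included 7 of the 25 that were lower at 48 h, the exceptions being RTC6 and cyt-21, both of which rose over time in the labelled strain. The 16 members under 500 bases held 5 of the 9. Without the third wild type library at 0 h 1 member was lower, without the third labelled library 5, without the first labelled library at 0 h 15 and without the first at 48 h 14. The summed spore genes named above were also lower in the labelled strain at 0 h. Of the 7 tested, 3 were lower, the rodlet gene among them, and 1 was higher, against 33.8% and 8.87% of all genes. The higher one was AOL_s00079g472, whose mean was 30.4 TPM for the wild type against 267 TPM (2.95, limma adjusted p = 0.0106). The part of the spore genes in the values of the members was not tested.

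The comparisons over time and between strains share libraries, so their values for a member are set side by side only. AOL_s00079g109 (mrp2) had a log2 fold change of 0.42 over time in the wild type, of 0.19 for the labelled strain, of -1.18 between the strains at 0 h and of -1.41 at 48 h. AOL_s00054g421 (yml6) had 1.75, 0.68, 0.10 and -0.96 in the same order, and AOL_s00210g48 (MRPL3) had 1.57, 0.35, 0.55 and -0.67. AOL_s00097g171 (mrps12) had 0.50, 0.31, 0.09 and -0.10.

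In the authors' deposited table of calls 35 members were listed. It called 33 of them higher at 48 h in the wild type, among them all 31 given here, and none lower. Between the strains at 48 h the authors' deposited table called 5 members lower, mrp2, MRPL4, MRPL33, MRPL27 and mrp20, all among the 25 given here. At 0 h the authors' deposited table called 2 members higher in the labelled strain, AOL_s00004g83 (MRPS8) and AOL_s00210g48 (MRPL3), which under the TPM scale had 0.46 ± 0.21 (limma adjusted p = 0.0883) and 0.55 ± 0.29 (limma adjusted p = 0.136), and none lower. It called no member over time in the labelled strain.

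The reference set of 85 cytosolic ribosomal protein genes had 76 that rose and 1 that fell over time in the wild type (median 1.15) and 1 that rose in the labelled strain (median 0.35). Of all genes 17.6% rose and 28.7% fell in the wild type, and 13.0% rose in the labelled strain. Between the strains 68 were lower and 1 higher at 48 h (median -1.05), against 14.7% and 9.2% of all genes. At 0 h 2 were lower and 1 higher (median -0.20), against 33.8% and 8.87% of all genes. On the median-of-ratios scale 3 were higher and none lower at 0 h (median 0.36). In the interaction 1 of the 85 was lower, with a median of -0.88, against 1.2% of all genes. The gene with the lowest adjusted p over time and at 0 h was AOL_s00054g343, matched to RLP24, a factor that assembles the cytosolic large subunit and no ribosomal protein itself, which went from 68.1, 55.1 and 62.1 TPM to 630, 602 and 796 TPM in the wild type (3.43 ± 0.24, limma adjusted p = 1.15e-05). Of the 85, 4 carry KEGG names of mitochondrial proteins without a mitochondrial Swiss-Prot match. One of them, AOL_s00004g509 (family S6), had the lowest adjusted p at 48 h, with 277, 320 and 326 TPM in the wild type and 207, 116 and 98.2 TPM in the labelled strain (-1.20 ± 0.27, limma adjusted p = 0.0113). Without these 4 the medians were 1.18, 0.36, -1.06 and -0.19.

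A further 11 genes outside the rule carry a mitochondrial ribosomal name or domain in another annotation column, these 4 among them. Of the 11, 8 rose over time in the wild type (median 0.96) and none did in the labelled strain (median 0.54). Of all genes 17.6% and 13.0% rose. Between the strains 4 were lower in the labelled strain at 48 h (median -0.88), against 14.7% of all genes (median -0.11). At 0 h 2 were lower (median -0.42), against 33.8% of all genes (median -0.56). Of the 54 members, AOL_s00076g69 (RSM26) has the domain of iron and manganese superoxide dismutases, known relatives of ribosomal proteins. AOL_s00054g784 (RSM23) has the domain of the death-associated protein DAP3, which its annotation names as a mitochondrial ribosomal protein. AOL_s00054g420 has the domain of phosphatidylethanolamine-binding proteins. All 3 rose over time in the wild type, by 1.15 ± 0.26, 1.39 ± 0.33 and 1.37 ± 0.32 on the log2 scale (limma adjusted p = 0.00387, 0.00505 and 0.00404).

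Genes for other steps of mitochondrial gene expression were read from lists made by the same kind of text match. Over time 17.6% of all genes rose and 28.7% fell in the wild type, and 13.0% rose and 8.52% fell in the labelled strain. Of 5 translation factor genes 3 rose and 1 fell over time in the wild type, and none passed in the labelled strain. The elongation factor Tu gene AOL_s00054g433, whose product brings charged tRNAs to the ribosome, went from 167, 154 and 191 TPM to 423, 546 and 484 TPM in the wild type (1.5 ± 0.29, limma adjusted p = 0.00132). In the labelled strain at 48 h it had 437, 206 and 207 TPM, a difference from the wild type of -0.86 ± 0.29 (limma adjusted p = 0.0462) that did not pass on the median-of-ratios scale. The first library lay within the range of the wild type. The elongation factor G gene AOL_s00004g229 rose by 1.76 on the log2 scale and the initiation factor IF-2 gene AOL_s00054g582 by 0.96 (limma adjusted p = 0.00394 and 0.0309), and AOL_s00215g532, matched to the release factor C12orf65, which acts in rescuing stalled mitochondrial ribosomes in human cells, fell by 1.31 (limma adjusted p = 0.00719).

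Of the 3 mitochondrial transcription genes 2 rose in both strains, though 1 in the labelled strain with median-of-ratios or quantile scaling or without both first labelled libraries: AOL_s00054g516 (transcription factor 1) and the RNA polymerase gene AOL_s00004g535. The polymerase gene went from 10.4, 8.35 and 9.24 TPM to 36.8, 30.8 and 26.9 TPM in the wild type (1.65 ± 0.31, limma adjusted p = 0.00118), and a log2 fold change of 0.93 in the labelled strain (limma adjusted p = 0.0485). AOL_s00054g516 went from 14.5, 5.98 and 8.65 TPM to 36.1, 18.4 and 18.1 TPM in the labelled strain (1.24 ± 0.39, limma adjusted p = 0.0382). Of 19 genes for the import of proteins 14 rose and none fell in the wild type (median 1.09). In the labelled strain 5 rose and 1 fell (median 0.53). At 48 h 6 were lower in the labelled strain, against 14.7% of all genes. At 0 h 2 were higher and 2 lower, against 8.87% and 33.8% of all genes. The translocase gene tim22 (AOL_s00007g443) had 55.5, 39.99 and 57.2 TPM against 177, 174 and 198 TPM in the wild type (1.84 ± 0.28, limma adjusted p = 0.000256). The translocase gene tim14 (AOL_s00054g345) rose by 1.14 ± 0.23 in the labelled strain on the log2 scale (limma adjusted p = 0.00742). Between the strains tim13 (AOL_s00081g184) was lower by -1.27 ± 0.28 at 48 h (limma adjusted p = 0.0107), and AOL_s00007g510 (mitochondrial import protein 1) by -1.51 ± 0.26 at 0 h (limma adjusted p = 0.0021).

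The list of assembly and modification genes held 18, of which 9 rose and 2 fell over time in the wild type (median 1.05). Of all genes 17.6% rose and 28.7% fell there. In the labelled strain 3 rose, against 13.0% of all genes. Between the strains 8 were lower in the labelled strain at 0 h and 7 at 48 h, against 33.8% and 14.7% of all genes. The helicase gene suv3 (AOL_s00006g334), whose product degrades mitochondrial RNA in yeast, rose by 2.07 ± 0.30 in the wild type and 1.14 ± 0.30 in the labelled strain on the log2 scale (limma adjusted p = 0.000185 and 0.0195). The tRNA modification gene mss1 (AOL_s00076g298) had 7.76, 7.95 and 6.41 TPM at 48 h in the wild type against 2.79, 0.65 and 1.02 TPM (-1.84 ± 0.34, limma adjusted p = 0.00683).

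For the tRNA ligases and the oxidative phosphorylation pathway the wild type values over time lay nearer to those of all genes, whose median was -0.25. Of 13 tRNA ligase genes 2 rose and 2 fell in the wild type (median -0.10, or 0.14 on the median-of-ratios scale). Of all genes 17.6% rose and 28.7% fell there. In the labelled strain 1 rose and 1 fell, against 13.0% and 8.52% of all genes. Between the strains 8 were lower in the labelled strain at 0 h (median -0.88), against 33.8% of all genes (median -0.56). At 48 h 6 were lower (median -0.94), against 14.7% of all genes (median -0.11). The lowest adjusted p between the strains was that of the histidine ligase gene AOL_s00078g116 at 0 h (-1.18 ± 0.31, limma adjusted p = 0.0104) and that of the threonine ligase gene AOL_s00080g53 at 48 h (-1.2 ± 0.33, limma adjusted p = 0.0239). The valine ligase gene AOL_s00006g418, whose yeast relative serves cytosol and mitochondria from 1 gene, fell by 1.31 ± 0.33 over time in the wild type and by 1.24 ± 0.33 in the labelled strain (limma adjusted p = 0.00679 and 0.0221). Of 74 genes of the KEGG oxidative phosphorylation pathway 5 rose and 21 fell in the wild type (median -0.34), a share near the 28.7% of all genes that fell. In the labelled strain 4 rose and 2 fell (median -0.07), against 13.0% and 8.52% of all genes. On the median-of-ratios scale 2 rose and 11 fell there (median -0.23). Between the strains 3 were higher and 32 lower at 0 h (median -0.61), against 8.87% and 33.8% of all genes (median -0.56). At 48 h 2 were higher and 8 lower (median -0.32), against 9.2% and 14.7% of all genes (median -0.11). That list also holds genes for subunits of V-type proton ATPases, an inorganic pyrophosphatase and a uroporphyrinogen-III synthase. Its counts and medians thus do not describe the respiratory chain alone. A further gene in it is AOL_s00007g539, the proton pump of the plasma membrane and no mitochondrial protein. It had 577, 483 and 527 TPM in the 0 h wild type against 3486, 2396 and 4382 TPM in the labelled strain (2.65 ± 0.31, limma adjusted p = 0.000335). The succinate dehydrogenase gene AOL_s00054g737 went from 182, 111 and 131 TPM to 347, 413 and 366 TPM in the labelled strain (1.43 ± 0.23, limma adjusted p = 0.00295), without overlap. AOL_s00215g71, placed in the pathway by a KEGG match to a complex I subunit but with a BUD22 domain in place of one of that complex, had 2.83, 2.63 and 4.82 TPM against 49.3, 46.0 and 46.0 TPM at 48 h in the wild type (3.48 ± 0.33, limma adjusted p = 2.71e-05). The members and the oxidative phosphorylation genes were not tested against each other. On the median-of-ratios scale 8 of the 74 rose and 12 fell over time in the wild type, while 45 of the 54 members rose. At 0 h that scale gave 4 higher and 1 lower of the 74, none higher and 1 lower of the ligases, 6 higher and 1 lower of the import genes, and 2 higher and 4 lower of the assembly and modification genes.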

How the data were processed

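Libraries were made from hyphal RNA, per the labels' protocols. The sources used here do not name an aligner, a quantifier or a genome build. Labels of genotype and time gave the groups. The authors deposited TPM values with 2 decimals, and FPKM values with annotations and coding lengths, from which the members were chosen. The authors also deposited read counts per library and a table of calls. The percent of bases of at least quality 30, which the authors computed from the reads before they deposited it, was 94.3% to 94.7%. No gene counts were used, and 8 columns of group means were left out. FPKM steps matched whole fragments within 0.15, with an estimated 11.8 to 14.7 M fragments per library. All 54 locus tags matched the RefSeq gene table.

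A limma fit (version 3.58.1, R 4.3.3, eBayes with trend) of log2(TPM + 1) used all 12 libraries with 4 group means and kept genes that reached 1 TPM in 3 or more libraries, with Benjamini-Hochberg adjustment over 9355 genes and calls at adjusted p under 0.05. The planned count test needs counts per gene, so the planned fallback for TPM was used. The fit was tested on simulated data. Fold changes understate low genes. Alternatives were a pseudocount of 0.1, no filter, median-of-ratios scaling, quantile normalization, a replicate block, 6 libraries per comparison, and libraries left out.

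Named members were, per comparison, the called ones with the 5 largest rises and falls, non-overlapping libraries and at least 5 TPM in the higher group; for the interaction the 3 lowest adjusted p; the 3 highest and 3 lowest by mean; and per companion list the called gene with the lowest adjusted p. Members named beyond this rule, and further genes of the companion lists, were chosen after their values were seen. The members and lists were chosen with earlier results of these data known. One gene that the rule picks from the assembly and modification list is not reported here. No sequences are shown.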

Additional observations from a re-analysis of the deposited data

How the results depend on the processing

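The number of members that rose over time in the wild type stayed within 1.5 times of 31 under every alternative (24 to 38 with a library left out). Without 1 library in turn the other counts ranged from 0 to 1 higher and 1 to 15 lower at 0 h between the strains, from 0 to 46 lower at 48 h, from 0 to 15 that rose in the labelled strain and from 0 to 5 lower in the interaction. Median-of-ratios scaling gave 3 higher and 0 lower at 0 h, 12 lower at 48 h, 1 that rose in the labelled strain and 2 lower in the interaction. Quantile normalization gave 2 higher and 5 lower at 0 h, 0 that rose in the labelled strain and 1 lower in the interaction. Without a filter 1 was lower in the interaction, and with 6 libraries 0 rose in the labelled strain. Without both first labelled libraries there were 1 higher and 21 lower at 0 h, 49 lower at 48 h, 7 that rose in the labelled strain and 8 lower in the interaction. The cause was not tested. The replicate block gave 16 lower at 48 h, 1 that rose in the labelled strain and 7 lower at 0 h; same-numbered libraries correlated at -0.316 to 0.188, so the numbers were not taken to pair samples. No member named for a call or for the interaction changed direction under any alternative. Uncalled values near 0 could turn: mrps12 was at 0.04 between the strains at 48 h with median-of-ratios scaling, and without the first wild type library at 0 h mrps28 was at 0.01 and MRPL44 at -0.04 over time in the wild type. Without the second, MRPL44 was at -0.01.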
